A study of Mus musculus with 9 samples.

Results

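The insulin-like growth factor (IGF) system was followed across the 3 layers of the newborn mouse bladder wall: the detrusor, which is the smooth muscle coat, the stroma, which is the connective tissue beneath the lining, and the urothelium, the lining epithelium. The set held 10 genes named by symbol: the ligands Igf1 and Igf2, the receptors Igf1r and Igf2r, and the binding proteins Igfbp2, Igfbp3, Igfbp4, Igfbp5, Igfbp6 and Igfbp7. These were 10 of 18193 named genes on the array, and all 10 were among the 13064 genes tested. They had 28 probe sets of 45101, of which 25 reached the median of their array on at least 3 of the 9 arrays. Members were listed by gene symbol.

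Each layer was represented by 3 samples cut by laser capture microscopy from frozen bladder sections, with 1 Affymetrix MOE430 array per sample. All 9 samples came from FVB/N mice that carried the SMGA/EGFP transgene, a green fluorescent reporter for smooth muscle gamma actin (Actg2), so no layer had a group without the transgene. Detrusor samples 1 and 2, stroma sample 1 and urothelium sample 2 were taken at postnatal day 1, and the other 5 at postnatal day 2. All were of Theiler stage 27, sex was labelled unknown, samples were not pooled, and RNA went through 2 rounds of amplification before biotin labelling. The labels do not tie samples to animals, so p-values measure only the spread between these samples. In captured bulk tissue, fewer cells of a type and less RNA per cell cannot be told apart.

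IGF1 and IGF2 are secreted peptides that promote growth and survival by activating the IGF1 receptor, a tyrosine kinase encoded by Igf1r. The protein of Igf2r, the cation-independent mannose 6-phosphate receptor, carries IGF2 to lysosomes for breakdown and so lowers the supply of ligand. In the mouse Igf2 is expressed mainly from the paternal allele and Igf2r mainly from the maternal allele, and the IGF binding proteins hold ligand in the circulation and in the matrix, either restraining it or delivering it to the receptor. In the bladder, IGF1 and its binding proteins are known from work on smooth muscle growth.

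The start regions of Igf1, Igf2 and Igf2r, the 3 members that passed the test between a pair of layers, follow here, because Igf2 is transcribed from several alternative starts while the array reads the 3' end of the transcript and cannot tell them apart. Each line gives the 160 bases before a RefSeq start in GRCm38.p6, read 5' to 3' on the strand of the gene, and capitals mark the letters TATAAA, the letters GGGCGG or a CArG box on either strand. GGGCGG is a letter pattern bound by Sp1-type factors, and the CArG box is the pattern bound by serum response factor, which drives many smooth muscle genes. The stretches lie at chr10:87860951-87861110 on the plus strand for Igf1 and at chr17:12769707-12769866 on the minus strand for Igf2r. The 4 Igf2 entries, all on the minus strand, lie at chr7:142666817-142666976, chr7:142661272-142661431, chr7:142658805-142658964 and chr7:142657497-142657656.
Igf1: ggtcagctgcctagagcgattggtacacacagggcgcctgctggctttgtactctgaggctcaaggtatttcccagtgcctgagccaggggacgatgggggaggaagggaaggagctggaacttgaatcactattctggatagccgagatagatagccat
Igf2, entry 1: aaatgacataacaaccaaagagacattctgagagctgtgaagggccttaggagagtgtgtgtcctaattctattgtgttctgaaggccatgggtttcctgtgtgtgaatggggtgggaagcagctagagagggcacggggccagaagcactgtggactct
Igf2, entry 2: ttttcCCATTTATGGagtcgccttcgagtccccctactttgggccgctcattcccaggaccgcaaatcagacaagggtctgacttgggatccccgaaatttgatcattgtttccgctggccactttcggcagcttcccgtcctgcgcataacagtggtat
Igf2, entry 3: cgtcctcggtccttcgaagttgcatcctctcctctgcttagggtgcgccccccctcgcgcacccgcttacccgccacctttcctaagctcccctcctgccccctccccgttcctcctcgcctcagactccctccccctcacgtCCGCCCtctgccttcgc
Igf2, entry 4: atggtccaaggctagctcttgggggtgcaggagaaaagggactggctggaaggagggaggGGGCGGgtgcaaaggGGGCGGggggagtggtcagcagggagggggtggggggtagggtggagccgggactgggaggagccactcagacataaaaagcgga
Igf2r: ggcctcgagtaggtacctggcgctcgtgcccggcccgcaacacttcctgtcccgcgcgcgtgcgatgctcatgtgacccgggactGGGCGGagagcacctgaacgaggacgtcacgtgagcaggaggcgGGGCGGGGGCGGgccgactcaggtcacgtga

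Only the second Igf2 entry held a CArG box, CCATTTATGG, and it begins 155 bases before that start. GGGCGG or its complement stood in Igf2 entries 3 and 4 and in Igf2r, whose stretch was 69.2% G and C over the 250 searched bases, against a median of 52.4% for all promoters. Igf1 and the first Igf2 entry held none of the capitalised patterns and had G and C shares of 52.8% and 50.8%. Over the 250 bases before the start, the 10 members had 14 RefSeq promoters, of which 6 held GGGCGG, 2 TATAAA, 3 CCAAT and 1 a CArG box, on either strand. Of all 32851 promoters in the table, 32.7% held GGGCGG, 12.4% TATAAA, 33.8% CCAAT and 1.47% a CArG box. These are letter matches and not binding sites.

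Levels are given as log2 of the deposited intensity plus 39.31, the 20th percentile of all values, so that a difference of 1 is a doubling, somewhat understated for dim genes. A gene was represented by its probe set with the highest mean. Differences were tested with limma over all 9 arrays and 13064 genes, and a gene was called when its Benjamini-Hochberg adjusted p was under 0.05. Median intensities ran from 133.3 to 388.5, and the trimmed mean was 1500.01 on every array, which is the scale of the deposited values. The 3' to 5' ratio of the beta actin controls, a sign of RNA quality after amplification, was 24.7 on stroma array 1 and 2.27 to 8.49 on the other 8 arrays. That of the Gapdh controls ran from 15.3 to 34.7 and was highest on detrusor array 2 (34.7), followed by stroma array 1 (31.8).

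Marker lists followed the labels on most but not all arrays. The median of 10 urothelial markers, such as uroplakins and keratins, was 13.8 to 14.9 in urothelium and 7.90 to 8.41 in detrusor, but 12.4, 9.11 and 13.1 on stroma arrays 1, 2 and 3. The median of 8 smooth muscle markers was 15.3 to 15.7 in detrusor, 9.96 to 12.4 in stroma, and 9.33, 8.27 and 14.3 on urothelium arrays 1, 2 and 3. The median of 8 fibroblast markers, such as Col1a1 and Pdgfra, was 14.3 to 15.2 in detrusor, 15.2 to 15.6 in stroma and 12.6 to 13.5 in urothelium, and their summed intensity was 278400 to 354400, 385100 to 582200 and 125500 to 256400. Over all genes, stroma array 3 was most like urothelium array 1, with r = 0.904. Stroma array 2 was most like detrusor array 1 (0.835), and stroma array 1 was most like stroma array 3 (0.853). Of the other lists, the medians in detrusor, stroma and urothelium were 9.84 to 10.9, 10.1 to 11.3 and 8.86 to 10.6 for 7 of 8 endothelial genes, and 12.3 to 12.8, 11.7 to 12.2 and 8.73 to 11.5 for 6 pericyte genes. They were 8.85 to 9.58, 8.89 to 11.3 and 7.72 to 8.65 for 8 macrophage genes, 8.43 to 8.96, 7.71 to 9.57 and 7.87 to 8.38 for 3 of 6 neural and glial genes, and 6.29 to 8.20, 8.42 to 10.6 and 10.2 to 10.9 for 3 of 4 mesothelial genes. The 3 mesothelial genes did not run alike. Upk3b was highest in urothelium, at 14.07, 15.31 and 14.74, and Msln on stroma array 3 (10.61) was as high as in urothelium. Wt1 was highest on stroma array 2 (12.53) and read 6.32 on urothelium array 2. No tested marker on these lists was listed at 0, and results are also given below without stroma array 3 and urothelium array 3.

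**Figure D1:**
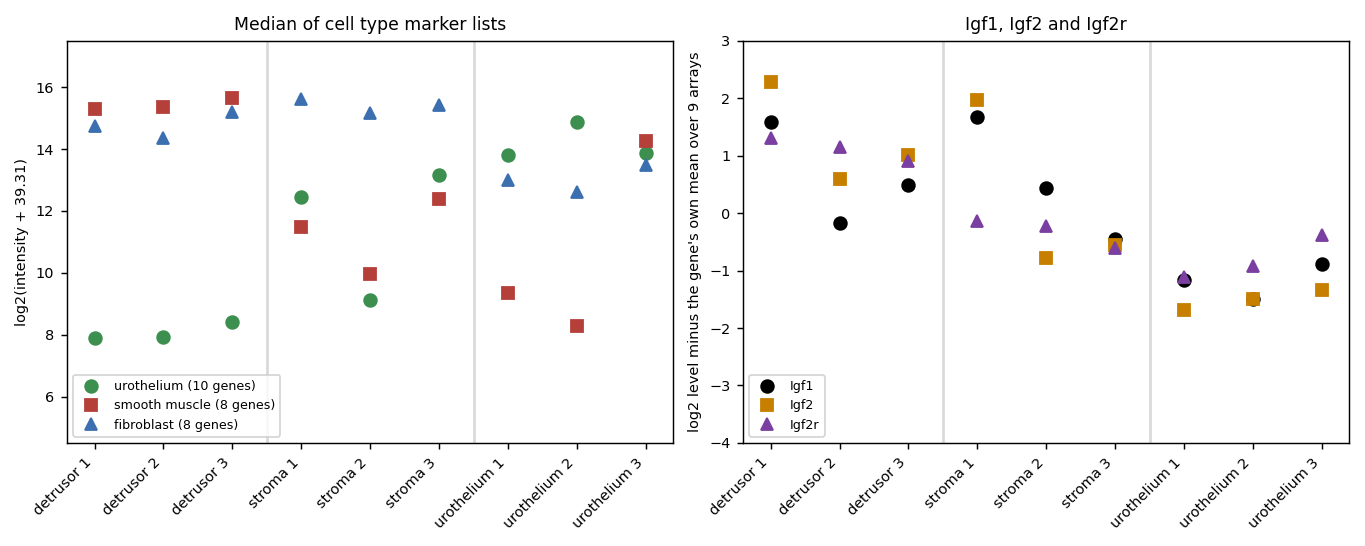
Left, the median level of 3 marker lists on each of the 9 arrays, as log2 of intensity plus 39.31; right, Igf1, Igf2 and Igf2r on the same arrays as the log2 level minus the mean of that gene over the 9 arrays. Urothelium array 3 had a smooth muscle median of 14.3, close to the 15.3 to 15.7 of detrusor, and its Igf1, Igf2 and Igf2r levels were below those of every detrusor array; the part of muscle content was not tested.

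Both ligands were lowest in the urothelium. For Igf1 the probe set 1437401_at read 14.77, 13.01 and 13.67 on detrusor arrays 1 to 3, 14.86, 13.62 and 12.73 in stroma, and 12.03, 11.69 and 12.30 in urothelium. All 3 urothelium arrays lay below all 6 others, and detrusor and stroma overlapped widely. The means were 13.82 ± 0.89 (SD, n = 3) in detrusor, 13.74 ± 1.07 in stroma and 12.01 ± 0.31 in urothelium. Igf1 was thus 3.51-fold lower in urothelium than in detrusor, a log2 difference of -1.81 ± 0.54 (SE), with a limma adjusted p of 0.0446.

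For Igf2, the fetal growth factor, the probe set 1448152_at read 14.91, 13.23 and 13.64 in detrusor, 14.59, 11.85 and 12.07 in stroma, and 10.95, 11.14 and 11.29 in urothelium. The urothelium arrays lay within 0.4 of one another and below the 6 others, while stroma array 1 stood far above the other stroma arrays. The means were 13.93 ± 0.87, 12.84 ± 1.52 and 11.13 ± 0.17 (SD, n = 3 each). Igf2 was 6.98-fold lower in urothelium than in detrusor, with a log2 difference of -2.80 ± 0.66 and a limma adjusted p of 0.0151. This was the largest difference among the 10 members between any pair of layers apart from that of Igfbp2 between detrusor and stroma, which was not called.

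**Figure D2:**
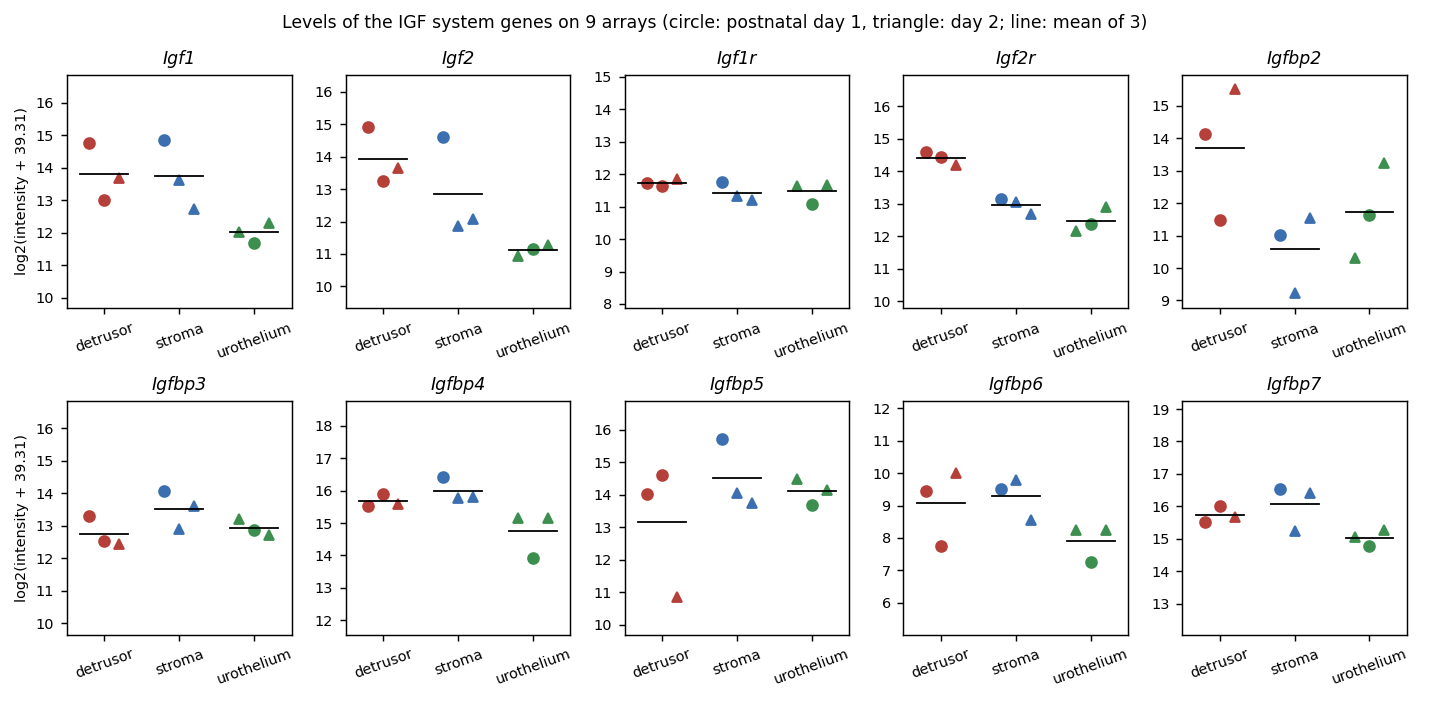
Levels of the 10 IGF system genes as log2 of intensity plus 39.31, with 1 point per array, circles for postnatal day 1, triangles for day 2 and lines for the mean of 3 arrays; every panel spans the same range. Igf1 and Igf2 on the 3 urothelium arrays lie below all detrusor and stroma arrays, and the 3 detrusor arrays of Igf2r lie above all 6 others.

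Of the 10 members, 3 were called between urothelium and detrusor, all lower in urothelium: Igf1, Igf2 and Igf2r. Of all genes tested, 16.4% were called in that comparison and 8.05% were lower in urothelium. The median difference of the members was -1.03, against -0.01 for all genes. At an unadjusted p under 0.05 limma listed 4 members, the 3 called and Igfbp4, and 29.5% of all genes. Groups did not overlap for 5 members, all lower in urothelium (the 3 called, Igfbp4 and Igfbp7). Of all genes, 39.3% did not overlap and 20% were lower without overlap.

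Against the stroma alone no member was called, and 0.23% of all genes were. Urothelium minus stroma was -1.73 ± 0.54 log2 units for Igf1 (limma adjusted p = 0.122) and -1.71 ± 0.66 for Igf2 (0.190). At an unadjusted p under 0.05 limma listed 4 members, Igf1, Igf2, Igfbp4 and Igfbp7, all with lower means in urothelium, and 19% of all genes. The groups did not overlap for 4 members, Igf1, Igf2, Igfbp4 and Igfbp6, all lower in urothelium, and for 23.1% of all genes, with 13.3% lower. The median difference of the members was -0.81, and of all genes -0.12. With stroma array 3 left out, Igf1 was called, at -2.23 with an adjusted p of 0.0481, and its alternatives ran from 0.0481 to 0.353. With stroma array 1 left out, Igf1 moved the other way, to -1.17 (0.271), and Igf2 to -0.84 (0.389). Without both stroma array 3 and urothelium array 3, Igf1 was -2.38 (0.0638) and Igf2 -2.18 (0.189).

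Set against the mean of detrusor and stroma, the urothelium was lower in 4 members: Igf1 by 3.41-fold, Igf2 by 4.78-fold, Igf2r by 2.30-fold and Igfbp4 by 2.12-fold. The limma adjusted p was 0.0361 for Igf1, 0.0296 for Igf2, 0.0112 for Igf2r and 0.0366 for Igfbp4. In this comparison 11.4% of all genes were called and 5.47% were lower. With arrays centred on their medians none of the 4 was called (adjusted p = 0.0976, 0.0614, 0.116 and 0.0890 in the same order). The comparison uses the same urothelium, detrusor and stroma arrays as the pairwise comparisons and is no independent result. At an unadjusted p under 0.05 limma listed 6 members and 26.3% of all genes. Urothelium lay below both other layers without overlap for 3 members, Igf1, Igf2 and Igfbp4, while 12.6% of all genes did not overlap and 6.19% were lower. The members' median was -0.97 against -0.08 for all genes.

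The other probe sets of the ligands gave the same direction. All 4 Igf1 probe sets were lower in urothelium in each of the 3 comparisons, and 3 were called against the mean of the other layers, with all 4 between -2.02 and -1.34. Both Igf2 probe sets were called lower in urothelium than in detrusor, at -2.80 and -2.73. Probe sets of 1 gene share the same RNA and are not replicates.

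Single arrays bore on the ligand calls. Without detrusor array 1, which had the highest detrusor level of both ligands, Igf2 between urothelium and detrusor was -2.31 with a limma adjusted p of 0.0627, the top of a range from 0.00084, and it was called in the 18 other alternatives of 19. The same comparison of Igf1 was called in 8 of 19 alternatives, with adjusted p from 0.0047 to 0.158; without detrusor array 1 or 3 it was -1.33 (0.158) or -1.88 (0.107), without urothelium array 1, 2 or 3 it was -1.82 (0.101), -1.65 (0.134) or -1.96 (0.0666), and without stroma array 2 it was -1.81 (0.0508). It was also lost with centred arrays (0.0794), without the filter (0.0562), with averaged probe sets (-1.73, 0.0532), without the variance trend (0.0699) and with postnatal day as a block (-1.65, 0.0756). Without both stroma array 3 and urothelium array 3, Igf1 was -1.96 (adjusted p = 0.0413) and Igf2 -2.88 (0.0331). Against the mean of the other layers, Igf1 kept its call in 12 of 19 alternatives (0.0129 to 0.153) and Igf2 in 13 (0.00604 to 0.107). The Igf1 call was lost without detrusor array 1 (-1.53, 0.0660) or 3 (-1.81, 0.0699) and without urothelium array 1 (-1.78, 0.0968), 2 (-1.61, 0.153) or 3 (-1.92, 0.0590). The Igf2 call was lost without detrusor array 1 (-2.01, 0.0595) or 3 (-2.33, 0.0563) and without urothelium array 1 (-2.17, 0.0941), 2 (-2.27, 0.107) or 3 (-2.34, 0.0593).

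The ligands did not differ detectably between detrusor and stroma. Igf1 differed by 0.08 ± 0.54, with a 95% interval of -1.12 to 1.28, and Igf2 by 1.09 ± 0.66, with an interval of -0.37 to 2.54 (limma adjusted p = 0.944 and 0.358). Without stroma array 1, the array with the high beta actin ratio, Igf2 was called higher in detrusor, at 1.96 with an adjusted p of 0.0405, and its other alternatives reached 0.673. Stroma array 1 was also the only stroma array of postnatal day 1. Within day 1, detrusor minus stroma was -0.52 for Igf2 (2 arrays against 1), and within day 2 it was 1.68 (1 against 2).

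The median of the fibroblast markers was also lowest in urothelium, at 12.6 to 13.5, below that of every detrusor and stroma array, 14.3 to 15.6. Of the single genes, Dcn, Lum and Vim were lowest in urothelium without overlap, while Col1a1, Col1a2, Col3a1, Pdgfra and Fbln1 overlapped. On urothelium array 3, for example, Col1a1 read 15.18 and Pdgfra 13.58, above detrusor array 3 at 14.575 and 12.97. The macrophage medians, 7.72 to 8.65 in urothelium and 8.85 to 11.3 elsewhere, and the pericyte medians, 8.73 to 11.5 and 11.7 to 12.8, were also lowest in urothelium without overlap. The pericyte gene Rgs5 went the other way, at 15.65, 15.87 and 15.83 in urothelium against 12.29 to 15.04 elsewhere. The summed pericyte intensity was highest in urothelium, at 62430 to 70300, against 31900 to 46660 in detrusor and 22000 to 61450 in stroma. Of the macrophage genes, Csf1r and C1qb were lowest in urothelium without overlap, while Adgre1, Cd68, Lyz2, C1qa, C1qc and Fcgr1 overlapped. The summed macrophage intensity overlapped too, at 3877 to 6216 in urothelium, 6108 to 11340 in detrusor and 8801 to 56560 in stroma. The part of these cell types in the ligand difference was not tested. Between detrusor and stroma, the fibroblast medians were 14.3 to 15.2 and 15.2 to 15.6, and the Igf2 means were 13.93 and 12.84, a difference that was not called.

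The receptors differed from each other in pattern. Igf2r was highest in the detrusor, where the probe set 1424111_at read 14.59, 14.43 and 14.18, against 13.14, 13.06 and 12.68 in stroma and 12.17, 12.37 and 12.89 in urothelium. Every detrusor array lay at least 1 log2 unit above every other array, and stroma and urothelium overlapped at their edges. The means were 14.40 ± 0.21, 12.96 ± 0.25 and 12.48 ± 0.37 (SD, n = 3 each). Igf2r was 2.72-fold higher in detrusor than in stroma, at 1.44 ± 0.28 log2 units with a limma adjusted p of 0.0173. It was 3.80-fold lower in urothelium than in detrusor, at -1.92 ± 0.28 with an adjusted p of 0.00177. Between urothelium and stroma it differed by -0.48 ± 0.28, with an interval of -1.10 to 0.13 and an adjusted p of 0.382.

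Igf2r was the single member called of 10 between detrusor and stroma, where 5.84% of all genes were called and 3.12% were higher in detrusor. It was also the single member whose arrays did not overlap there, against 27.1% of all genes, with 11.8% higher in detrusor. At an unadjusted p under 0.05 limma listed Igf2r and Igfbp2, and 22.9% of all genes. The members' median was -0.07 and that of all genes -0.16.

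The difference of Igf2r between urothelium and detrusor was called in all 19 alternatives, with limma adjusted p from 0.000146 to 0.00967. That between detrusor and stroma was called in 15 of 19, with adjusted p from 0.0139 to 0.0935. It was lost without detrusor array 1 (1.35, 0.0606), 2 (1.43, 0.0645) or 3 (1.55, 0.0622), and when the probe sets of a gene were averaged (1.11, 0.0935). Without both stroma array 3 and urothelium array 3 it was 1.30 with an adjusted p of 0.0412. Against the mean of the other layers, the Igf2r call was lost without urothelium array 1 (-1.05, 0.0614) or 2 (-1.15, 0.0646), within a range of 0.00388 to 0.116. The other Igf2r probe set, 1424112_at, had the same signs, at 0.79 ± 0.59 between detrusor and stroma and -2.03 ± 0.59 between urothelium and detrusor, and neither was called (adjusted p = 0.501 and 0.0505 over 25693 probe sets). A further probe set named for both Igf2r and another gene was not used.

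The medians of the smooth muscle and skeletal muscle markers were also highest in detrusor. Some single genes overlapped, such as Acta2, which read 16.05 on detrusor array 1 and 16.72 on urothelium array 3. The median of 5 of 6 listed skeletal muscle genes was 12.8 to 13.8 in detrusor, 7.81 to 8.42 in stroma and 5.98 to 10.3 in urothelium. Urothelium array 3 had a smooth muscle median of 14.3 and an Igf2r level of 12.89, which was the highest of the urothelium arrays and below every detrusor array. The part of muscle content in the Igf2r difference was not tested.

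Igf1r, the signalling receptor, had nearly level means. Its probe set 1452982_at read 11.72, 11.62 and 11.86 in detrusor, 11.75, 11.33 and 11.21 in stroma, and 11.65, 11.08 and 11.67 in urothelium. The 3 layers overlapped, with means of 11.73 ± 0.12, 11.43 ± 0.28 and 11.47 ± 0.33 (SD, n = 3 each). The differences were 0.30 (95% interval -0.38 to 0.98) for detrusor minus stroma, 0.04 (-0.64 to 0.71) for urothelium minus stroma and -0.27 (-0.94 to 0.41) for urothelium minus detrusor. None was called by limma (adjusted p = 0.597, 0.970 and 0.629), and these intervals leave room for differences of up to nearly a doubling. The 4 tested Igf1r probe sets disagreed in sign against the mean of the other layers, from -1.03 to 0.56, and none was called.

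**Figure D3:**
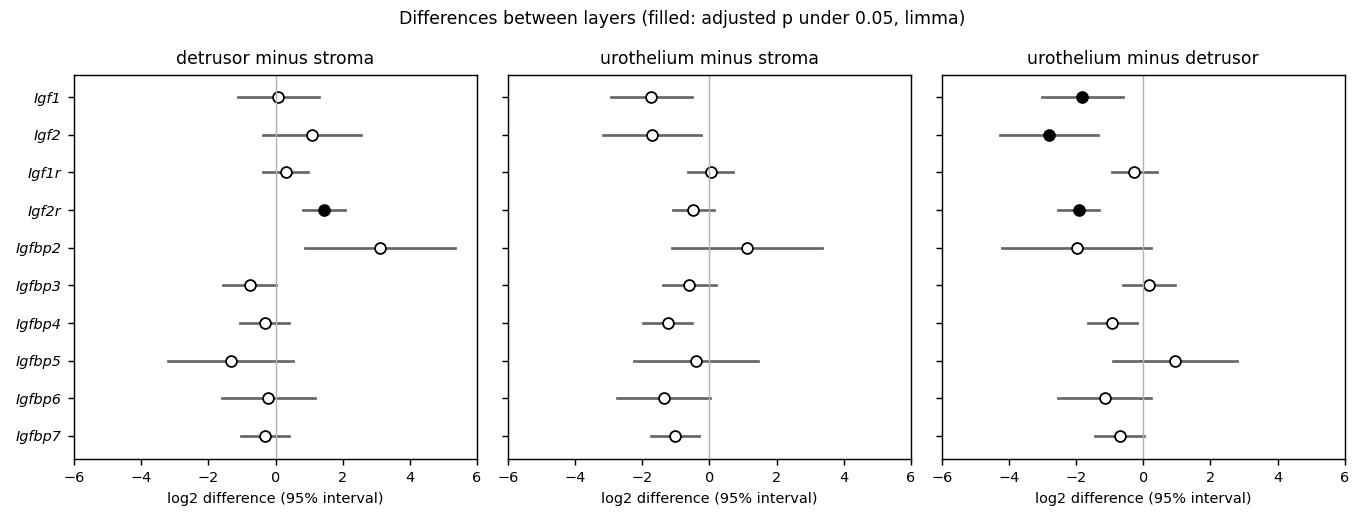
Differences between layers for the 10 IGF system genes in log2 units, with 95% intervals and filled points for limma adjusted p under 0.05. Igf2r is filled between detrusor and stroma, no gene is filled between urothelium and stroma, and Igf1, Igf2 and Igf2r are filled between urothelium and detrusor.

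Among the 6 binding proteins, Igfbp4 was the one called, and only in the comparison of urothelium with the mean of the other layers. Igfbp4 restrains IGF action until it is cleaved by the protease PAPP-A. Its probe set 1437405_a_at read 15.53, 15.88 and 15.58 in detrusor, 16.41, 15.76 and 15.81 in stroma, and 15.16, 13.92 and 15.16 in urothelium. The urothelium arrays lay below all others, and urothelium array 2 lay furthest below. Its means were 15.67 ± 0.19, 15.99 ± 0.36 and 14.75 ± 0.72 (SD, n = 3 each), and the difference from the mean of the other layers was -1.08 ± 0.29 with a limma adjusted p of 0.0366.

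Pairwise, Igfbp4 gave -1.25 ± 0.33 for urothelium minus stroma (adjusted p = 0.0855) and -0.92 ± 0.33 for urothelium minus detrusor (0.0893), and limma called neither. With the probe sets of a gene averaged, the difference from detrusor was -1.34 and was called (0.0268, alternatives 0.0268 to 0.276). All 5 tested Igfbp4 probe sets were called lower against the mean of the other layers when probe sets were fitted, from -1.55 to -1.08, where 6.59% of all probe sets were called. The probe sets 1423756_s_at and 1423757_x_at were also called lower than in detrusor, at -1.52 and -1.71 (adjusted p = 0.0389 and 0.0333). The gene-level call was kept in 10 of 19 alternatives, with adjusted p from 0.0193 to 0.157. Without urothelium array 2 the difference was -0.67 (0.157), and without array 1 it was -1.29 (0.0507). It was also lost without detrusor array 1 (-1.12, 0.0623), 2 (-1.03, 0.0721) or 3 (-1.10, 0.0723) and without stroma array 1 (-0.98, 0.0603).

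Igfbp7, a matrix protein with weaker affinity for IGFs, had the same order of means as Igfbp4. It read 15.52, 16.02 and 15.67 in detrusor, 16.53, 15.23 and 16.41 in stroma, and 15.06, 14.77 and 15.27 in urothelium. Urothelium lay below detrusor without overlap, and stroma array 2 fell among the urothelium arrays. The means were 15.74 ± 0.26, 16.06 ± 0.72 and 15.03 ± 0.25 (SD, n = 3 each). The difference from the mean of the other layers was -0.86 ± 0.28 and was not called by limma (adjusted p = 0.0747, with alternatives from 0.00804 to 0.281). It was called in 4 of 19 alternatives: quantile normalization (-0.72, 0.0417), averaged probe sets (-0.96, 0.0470), array weights (-0.82, 0.0230) and without stroma array 2 (-1.07, 0.00804). Without stroma array 2, urothelium minus stroma was -1.44 (0.0490, alternatives up to 0.380), and urothelium minus detrusor was also called (0.0459, alternatives up to 0.395).

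Igfbp2, which is abundant in fetal tissue, had the widest spread. It read 14.13, 11.47 and 15.50 in detrusor, 11.02, 9.22 and 11.54 in stroma, and 10.30, 11.63 and 13.22 in urothelium. Detrusor arrays 1 and 3 were high and detrusor array 2 fell within the range of the other layers, so the layers overlapped. The means were 13.70 ± 2.05, 10.59 ± 1.22 and 11.72 ± 1.46 (SD, n = 3 each), and detrusor minus stroma was 3.11 ± 1.01, with a 95% interval of 0.88 to 5.34 and a limma adjusted p of 0.0988. That comparison was called in none of its 19 alternatives, which ran from 0.0570 to 0.324, and its size ran from 2.21 without detrusor array 3 to 4.22 without detrusor array 2. Urothelium minus detrusor was -1.98 ± 1.01 and was not called (0.222, alternatives 0.0175 to 0.593), but with array weights it was -3.10 and was called (0.0175).

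Igfbp5, a binding protein with affinity for matrix, lies next to Igfbp2 in the RefSeq gene order. It read 14.04, 14.62 and 10.86 in detrusor, 15.74, 14.05 and 13.75 in stroma, and 14.48, 13.68 and 14.16 in urothelium. Detrusor array 3 was far below the other 8 arrays for Igfbp5 and was the highest of all 9 for Igfbp2. The means were 13.17 ± 2.03, 14.51 ± 1.07 and 14.11 ± 0.41 (SD, n = 3 each), and no difference was called (limma adjusted p from 0.373 to 0.863 over the 4 comparisons). Without detrusor array 3, urothelium minus detrusor turned from 0.93 to -0.22.

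Igfbp3, the main carrier of IGFs in serum, had its highest mean in stroma. Its arrays read 13.30, 12.53 and 12.43 in detrusor, 14.06, 12.90 and 13.60 in stroma, and 13.20, 12.86 and 12.72 in urothelium. Layers overlapped, with means of 12.75 ± 0.47, 13.52 ± 0.58 and 12.92 ± 0.24 (SD, n = 3 each), and detrusor minus stroma was -0.77 ± 0.36 (limma adjusted p = 0.228).

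Igfbp6, which prefers IGF2 over IGF1, read 9.44, 7.75 and 10.003 in detrusor, 9.50, 9.77 and 8.57 in stroma, and 8.26, 7.25 and 8.25 in urothelium. The urothelium arrays lay below the stroma arrays, and detrusor array 2 lay among them. The means were 9.07 ± 1.17, 9.28 ± 0.63 and 7.92 ± 0.58 (SD, n = 3 each). Urothelium minus stroma was -1.36 ± 0.63 and was not called by limma (adjusted p = 0.272).

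**Figure D4:**
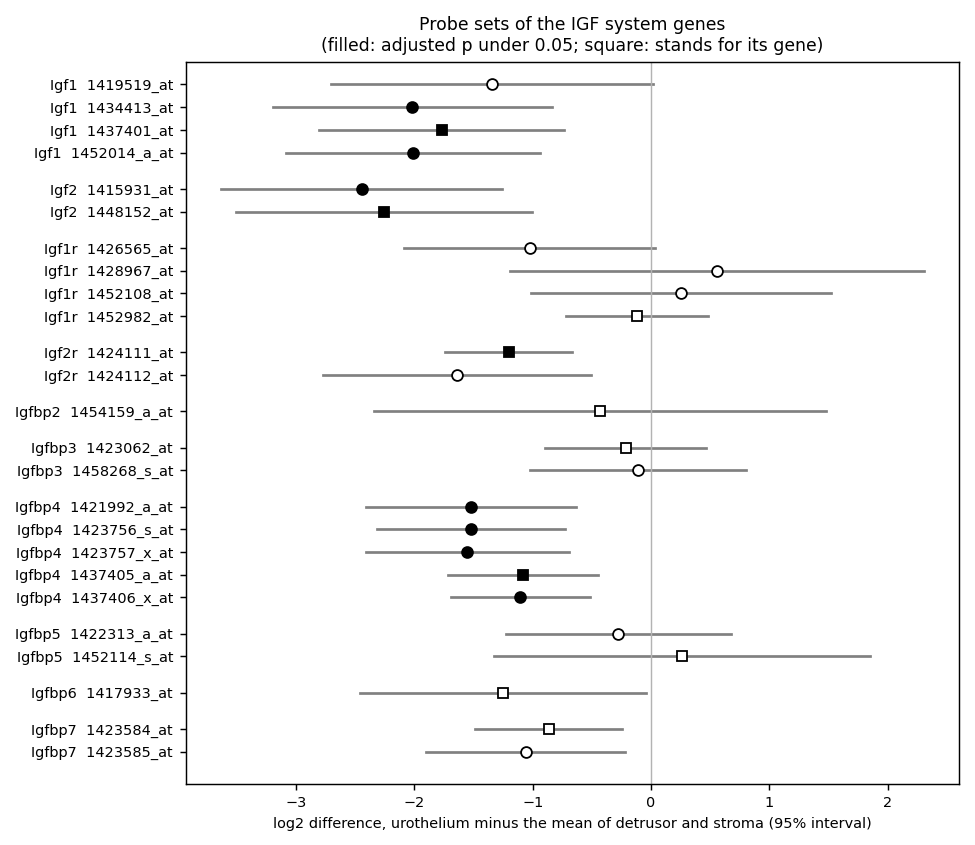
Every tested probe set of the 10 genes, as the log2 difference of urothelium from the mean of detrusor and stroma with its 95% interval; filled symbols have an adjusted p under 0.05 over 25693 probe sets, and squares stand for their gene. The 11 filled symbols belong to Igf1, Igf2, Igf2r and Igfbp4, and all lie below 0.

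Across the 10 members, the urothelium had the lowest mean for 6, the detrusor for 2 and the stroma for 2. The highest mean was in detrusor for 5 members and in stroma for 5, and the urothelium was highest for none. Stroma array 1 was the highest of the 9 arrays for 5 members, and urothelium array 2 the lowest for 5. The first had the beta actin ratio of 24.7 and the second the lowest median intensity, 133.3. The matching shares of all genes, for means and for arrays, were not counted. Of the 25 tested probe sets, 1 was called between detrusor and stroma, none between urothelium and stroma, 6 between urothelium and detrusor and 11 against the mean of the other layers, where the shares of all probe sets were 3.56%, 0.0934%, 11% and 6.59%.

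Of 45 further genes of the pathway, 37 could be tested, and every one called was lower in urothelium or in detrusor than in the layer it was compared with. Between urothelium and detrusor 6 of the 37 were called, about the 16.4% of all genes called there, of which 8.05% were lower. All 6 were lower in urothelium: Htra1, Adam12, Irs1, Grb14, Foxo1 and Ghr. Against the mean of the other layers 3 of the 37 were called lower (Htra1, Adam12 and Foxo1), beside 11.4% of all genes called and 5.47% lower. Htra1 alone was called between urothelium and stroma, beside 0.23% of all genes, and between detrusor and stroma, where it was lower in detrusor, beside 5.84%. The medians over the 37 genes were -0.52, -0.39, -0.25 and 0.24 in that order, beside -0.01, -0.08, -0.12 and -0.16 for all genes.

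Among the 6 listed proteases of binding proteins and their inhibitors, Htra1, a secreted serine protease that cleaves IGF binding proteins, separated all 3 layers. It read 13.75, 14.07 and 14.54 in detrusor, 15.64, 15.02 and 15.24 in stroma, and 13.05, 13.11 and 13.16 in urothelium, with no overlap between any pair of layers. Its means were 14.12 ± 0.39, 15.30 ± 0.32 and 13.11 ± 0.06 (SD, n = 3 each). The log2 difference was -2.19 ± 0.27 for urothelium minus stroma (limma adjusted p = 0.0305), -1.01 ± 0.27 for urothelium minus detrusor (0.0247) and -1.18 ± 0.27 for detrusor minus stroma (0.0295). Against the mean of the other layers it was called in all 19 alternatives, with adjusted p from 0.00113 to 0.0278.

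The pairwise Htra1 calls were less stable. Between urothelium and stroma Htra1 was called in 14 of 19 alternatives (limma adjusted p 0.00764 to 0.134) and was lost without detrusor array 1 (0.0513), stroma array 1 (-2.02, 0.0916), urothelium array 1 (-2.16, 0.0787) or urothelium array 2 (-2.19, 0.134). Between urothelium and detrusor it was called in 11 of 19 (0.00545 to 0.126) and was lost without detrusor array 2 (-1.04, 0.0583) or 3 (-0.80, 0.116) and without urothelium array 1 (-0.98, 0.0803), 2 (-1.02, 0.0701) or 3 (-1.04, 0.0522). Between detrusor and stroma it was called in 10 of 19 (0.0175 to 0.302) and was lost without detrusor array 1 (-0.99, 0.0942), 2 (-1.15, 0.0908) or 3 (-1.39, 0.0595), stroma array 1 (-1.01, 0.0678) or 3 (-1.21, 0.0610), or urothelium array 1 (0.0506). Without both stroma array 3 and urothelium array 3, Htra1 was -2.25 (0.0178) for urothelium minus stroma, and its calls for urothelium minus detrusor (-1.04, 0.0622) and detrusor minus stroma (-1.21, 0.0777) were lost. Centred arrays ended the latter calls as well (-1.01, 0.126, and -0.76, 0.302), and leaving out the variance trend ended all 3 (0.0641, 0.0621 and 0.0694).

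Adam12, a membrane metalloprotease that cleaves IGFBP3 and IGFBP5, read 11.25, 10.99 and 11.55 in detrusor, 11.43, 11.74 and 10.98 in stroma, and 10.10, 8.64 and 9.97 in urothelium. All urothelium arrays lay below the 6 others. The difference was -1.69 ± 0.43 for urothelium minus detrusor (limma adjusted p = 0.0226, alternatives 0.00595 to 0.0957) and -1.75 ± 0.38 against the mean of the other layers (0.0152, alternatives 0.00985 to 0.0694). The first call was lost without detrusor array 1 (-1.70, 0.0651) or 3 (-1.55, 0.0957), and both without urothelium array 2 (-1.23, 0.0683, and -1.29, 0.0694). Without both stroma array 3 and urothelium array 3 they were -1.89 (0.0323) and -2.05 (0.0201).

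Of the receptor substrates and adaptors, Irs1, which links the IGF1 and insulin receptors to PI3K, was lower in urothelium than in detrusor. It read 14.09, 14.12 and 14.12 in detrusor, 13.80, 12.69 and 12.90 in stroma, and 12.48, 12.81 and 12.97 in urothelium. Urothelium minus detrusor was -1.36 ± 0.31 (limma adjusted p = 0.0135, alternatives 0.000834 to 0.0672), and the call was lost without detrusor array 3 (-1.35, 0.0539) or urothelium array 1 (-1.22, 0.0581) and with centred arrays (-1.35, 0.0672); without both stroma array 3 and urothelium array 3 it was -1.46 (0.0260). Between detrusor and stroma its difference of 0.98 was not called (0.0932). Grb14, an adaptor that inhibits insulin receptor signalling, read 13.18, 13.75 and 13.62 in detrusor, 11.29, 12.94 and 10.66 in stroma, and 11.01, 8.66 and 11.69 in urothelium. Its difference between urothelium and detrusor was -3.06 ± 0.75 (0.0177, alternatives 0.00314 to 0.0655), and the call was lost without detrusor array 2 (-2.95, 0.0630) or 3 (-3.01, 0.0655), and without both arrays it was -3.68 (0.00810). Grb10, a related imprinted adaptor, had the smallest p of the adaptors between urothelium and stroma, at -0.76 ± 0.33, and was not called (0.252).

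In the PI3K, Akt and mTOR branch, Foxo1, a transcription factor that Akt keeps out of the nucleus, read 12.42, 12.01 and 11.87 in detrusor, 12.76, 12.37 and 12.53 in stroma, and 11.41, 10.84 and 10.87 in urothelium. The urothelium arrays lay below all others. The difference of urothelium was -1.28 ± 0.26 from the mean of the other layers (limma adjusted p = 0.0123, alternatives 0.0103 to 0.0886) and -1.06 ± 0.30 from detrusor (0.0363, alternatives 0.0193 to 0.150). The first call was lost without urothelium array 2 (-1.18, 0.0677), with averaged probe sets (-0.76, 0.0886), with centred arrays (-1.07, 0.0753) and without both stroma array 3 and urothelium array 3 (-1.20, 0.0518). The second was lost without detrusor array 1 (-0.90, 0.137), 2 (-1.10, 0.0713) or 3 (-1.17, 0.0709), without urothelium array 2 (-0.96, 0.111) or 3 (-0.97, 0.105), without both arrays (-0.97, 0.118), with centred arrays (-1.05, 0.110), with averaged probe sets (-0.70, 0.150) and with postnatal day as a block (-1.02, 0.0634). The difference from stroma, -1.51 ± 0.30, was not called (0.0543). Tsc2, which holds mTOR in check, was 1.60 ± 0.51 higher in detrusor than in stroma and was not called (0.0918).

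Of the regulators of IGF expression, Ghr, the growth hormone receptor, which induces Igf1, read 15.24, 15.84 and 15.30 in detrusor, 14.82, 13.83 and 14.47 in stroma, and 14.54, 14.02 and 13.82 in urothelium. Detrusor lay above every other array. For Ghr, urothelium minus detrusor was -1.34 ± 0.31 (limma adjusted p = 0.0140, alternatives 0.00617 to 0.0583), and the call was lost without detrusor array 2 (-1.15, 0.0583) or urothelium array 2 (-1.28, 0.0535), or without both stroma array 3 and urothelium array 3 (-1.18, 0.0567). Between detrusor and stroma it was 1.09 and not called (0.0677), and against the mean of the other layers -0.79 (0.0831). Igf2bp3, which binds Igf2 RNA, was 1.35 ± 0.40 higher in urothelium than in stroma and was not called (0.110). It was likewise 1.40 ± 0.40 higher in detrusor than in stroma, without overlap and not called (0.0709), and urothelium minus detrusor was -0.05. The remaining binder group, with Igfbp1, held no call: Igfbp1 differed by -1.86 ± 1.15 between detrusor and stroma and by 2.23 ± 1.15 between urothelium and detrusor (0.368 and 0.231), and by 0.36 and 1.29 against stroma and the mean of the other layers (0.907 and 0.463).

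**Figure D5:**
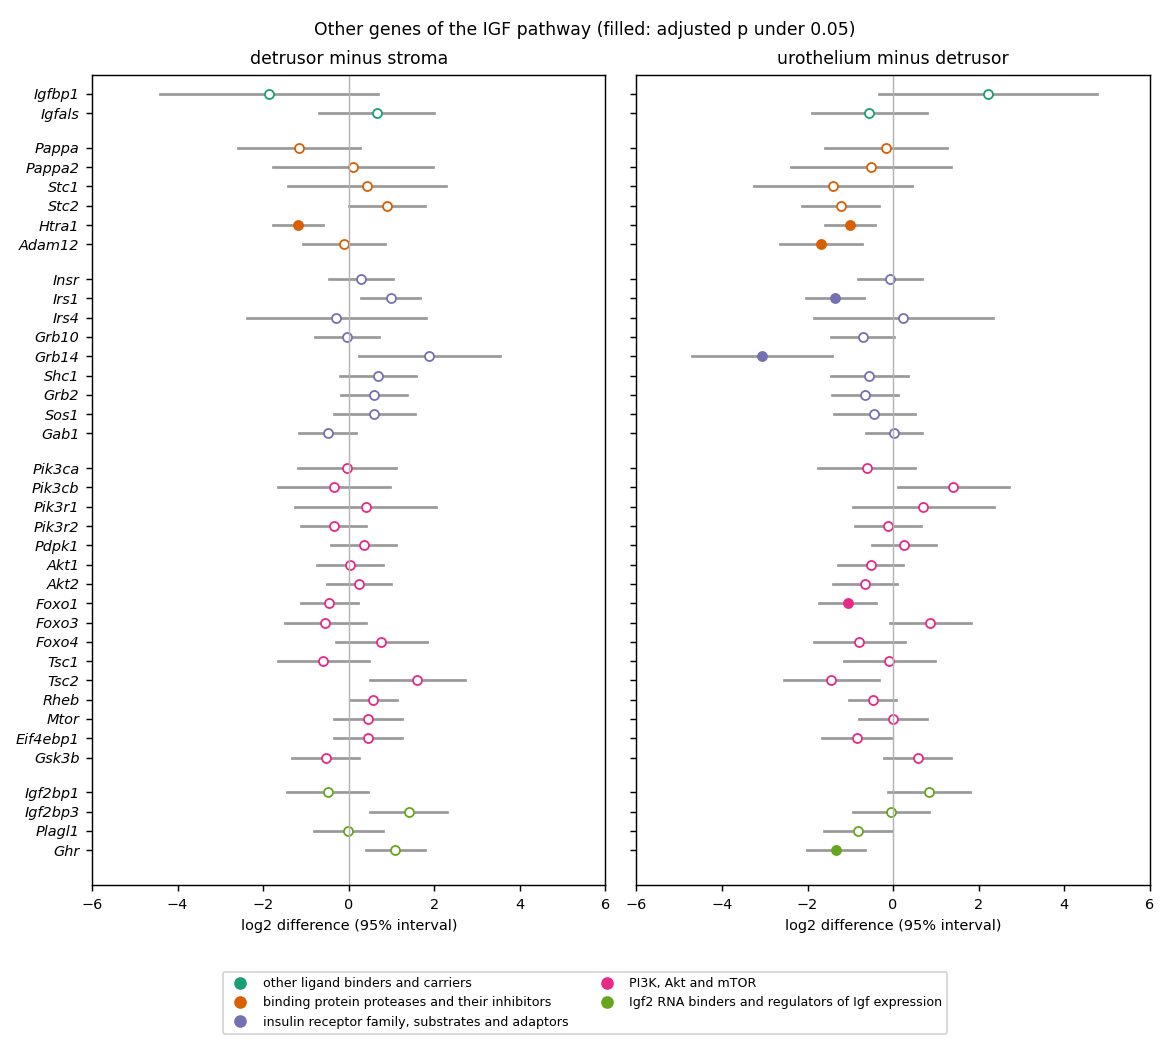
Log2 differences with 95% intervals for the 37 other pathway genes tested, coloured by group, with filled points for adjusted p under 0.05; left, detrusor minus stroma, right, urothelium minus detrusor. Htra1 is the one filled gene on the left, and the 6 filled genes on the right all lie below 0.

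The genes whose levels ran most like each member over the 9 arrays are given as a description, since the arrays share their layers and their scaling. For Igf1 these were Dlk1, Olfml3 and Hvcn1, with r from 0.96 to 0.97, and Dlk1 is an imprinted gene of fetal growth. Igf2 ran closest with Ccn3, Dmac1 and U2af1l4 (0.96 to 0.97). Closest to Igf2r were Sgca, Mmp16 and Aldh18a1 (0.97 to 0.99), of which Sgca encodes alpha-sarcoglycan of striated muscle. Igf1r was matched by Stx16, Timm8b and Kat6b at 0.94. Among the binding proteins, Igfbp4 was matched by Npr3, Rhoc and Evc (0.97 to 0.98) and Igfbp7 by Gsk3a, Colec12 and Col22a1 (0.96 to 0.98). Igfbp2 ran with Eif3k, Rps9 and Usp5 (0.93 to 0.95), and Igfbp5 with Naalad2, Fnip2 and Tbc1d5 (0.93 to 0.96). Igfbp3 ran with Elk3, Ap2a2 and Iqce (0.97 to 0.98), and Igfbp6 with Mier1, Rhobtb3 and Pank4 (0.94 to 0.96).

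Postnatal day was present in every layer, with 4 arrays of day 1 and 5 of day 2. With layer in the model, limma called none of the 10 members between the days, and 0.0153% of all genes. At an unadjusted p under 0.05 it listed 1 member, Igfbp5, and 5.56% of all genes. Igfbp5 had a day 2 minus day 1 difference of -1.55 ± 0.57 and an adjusted p of 0.873, with 0.366 to 1.0 over the alternatives. The layer-by-day F-test called none of the members and 0% of all genes, and at an unadjusted p under 0.05 listed 2 of 10 members, Igfbp4 (0.00856) and Igfbp5 (0.000415), and 6.22% of all genes. In that test each day of a layer had 1 or 2 arrays. For detrusor the 1 array of day 2 was array 3, which lay far below all other arrays for Igfbp5. There the day and that single array cannot be told apart.

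Within each day the pairwise differences of Igf1, Igf2 and Igf2r from urothelium kept their sign. Urothelium minus detrusor was -2.93 on day 1 and -2.53 on day 2 for Igf2, -2.20 and -1.50 for Igf1, and -2.14 and -1.65 for Igf2r. Detrusor minus stroma of Igf2r was 1.37 and 1.31. Urothelium minus stroma was -3.17 on day 1 and -1.01 on day 2 for Igf1, -3.45 and -0.85 for Igf2, and -2.49 and -0.62 for Igfbp4, so the day 1 values were the larger for all 3. The day 1 values set single arrays of urothelium and stroma side by side and carry no error. These were urothelium array 2, with the lowest median intensity (133.3), and stroma array 1, with the beta actin ratio of 24.7. In these values the day and the 2 arrays cannot be told apart.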

How the data were processed

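The 9 arrays were read from the deposited values table, in which the authors gave 1 linear intensity per probe set; the submitters' processing notes name GCOS, without a version, and how probes were summarised and scaled is not given in the sources used here. It listed 45101 probe sets; beside 64 controls, the platform annotation gave 1 symbol to 34945, several to 932 and none to 9160. From the deposited intensities log2(intensity + 39.31) was computed; the pseudocount was the 20th percentile of all values. Probe sets at or above the array median on at least 3 arrays were kept (25693), and each gene was read from its brightest kept probe set, by mean.

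A linear model with layer as its term was fitted to all 9 arrays with limma 3.58.1 (R 4.3.3; lmFit, eBayes with a variance trend), with p-values adjusted by Benjamini-Hochberg over 13064 genes or 25693 probe sets. The script was tested on simulated data. Alternatives were the pseudocount, the scaling, the filter, the probe set rule, the variance model, array weights, postnatal day as a block and each array left out. The precision is limited by 3 arrays per layer; the median SE of detrusor minus stroma was 0.449. Named genes were all members, every pathway gene called or with the smallest p in its group, and the 3 genes most like each member. Members, pathway and marker lists were chosen with earlier results of these data known. Of the pathway list, 5 genes had no probe set of their own and 3 had none that passed the filter.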

Additional observations from a re-analysis of the deposited data

How the results depend on the processing

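The 19 alternatives turned the sign only of differences that were not called. For detrusor minus stroma these were Igf1 (-0.115 with the mean of the probe sets, -0.0773 with postnatal day as a block, -0.42 to 0.64 with 1 array or both stroma array 3 and urothelium array 3 left out), Igfbp4 (0.0894 with arrays centred on their medians), Igfbp7 (0.093, centred) and Igfbp6 (0.092 with quantile normalization, 0.20 centred, 0.27 with array weights, 0.0174 with the day block, -0.68 to 0.44 with arrays left out). For urothelium minus stroma they were Igf1r (-0.18 to 0.23 with arrays left out) and Igfbp5 (0.0166 centred, -0.81 to 0.21 with arrays left out). Igfbp5 in urothelium minus detrusor ran from -0.22 to 1.66 with arrays left out. Against the mean of the other layers they were Igf1r (0.10 centred, -0.27 to 0.0773), Igfbp2 (-1.18 to 0.28), Igfbp3 (0.0022 centred) and Igfbp5 (-0.0055 with the mean of the probe sets, -0.31 to 0.63). The cause was not tested.

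Counts of called members moved as follows. For detrusor minus stroma, 1 became 0 with the mean of the probe sets and 0 to 2 with 1 array left out. For urothelium minus stroma, 0 became 0 to 1, and for urothelium minus detrusor, 3 became 1 to 3. The calls of all genes moved as well. For detrusor minus stroma they were 388 higher and 319 lower with the mean of the probe sets, in place of 408 and 355. With 1 array left out, they ran from 58 and 47 to 374 and 477. They ran from 0 and 0 to 327 and 201 for urothelium minus stroma. For urothelium minus detrusor they ran from 656 and 516 to 1253 and 1182. Against the mean of the other layers, 4 became 0 centred, 2 without the variance trend and 0 to 5 with 1 array left out. The 776 higher and 714 lower of all genes there became 789 and 385 centred and 688 and 643 without the trend. With 1 array left out they ran from 246 and 134, without urothelium array 2, to 845 and 800, without stroma array 2. Member probe sets called in any comparison, 11, became 7 with the pseudocount at the 5th percentile, 7 centred, 5 without the filter, 4 without the trend and 1 to 10 with 1 array left out. The calls of all probe sets under these settings are not given here. Between the days the count of called members stayed at 0.

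Of the pathway genes, the 1 called between detrusor and stroma became 2 with quantile normalization, the mean of the probe sets or array weights, 0 without the trend or without both arrays, and 0 to 3 with 1 left out. Of all genes, 477 higher and 324 lower were called with quantile normalization, 388 and 319 with the mean of the probe sets. They were 415 and 403 with array weights, 313 and 290 without the trend and 302 and 126 without both arrays, in place of 408 and 355. The 1 between urothelium and stroma became 2 with the pseudocount at the median or quantile normalization, 0 without the trend, and 0 to 2. The calls of all genes there became 163 higher and 140 lower, 38 and 46, and 0 and 0 under these 3 settings, in place of 8 and 22. The 6 between urothelium and detrusor became 3 centred or without both arrays, 14 with array weights, and 1 to 8. All genes called there were 1954 higher and 1831 lower with array weights, in place of 1094 and 1051. They were 878 and 858 centred and 898 and 986 without both arrays. The 3 against the mean of the other layers became 6 with array weights, 5 without both arrays, and 1 to 6. All genes called there became 1100 higher and 1085 lower with array weights and 680 and 780 without both arrays, in place of 776 and 714. With 1 array left out, the calls of all genes ran as given above for the members.

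Centring arrays on their medians moved the median of all genes from -0.16 to 0.25 for detrusor minus stroma and from -0.12 to 0.31 for urothelium minus stroma. The calls of all genes then split 589 higher to 144 lower, in place of 408 to 355, in the first, 192 to 31, in place of 8 to 22, in the second, and 789 to 385, in place of 776 to 714, against the mean of the other layers. Replicates were numbered in accession order. No paired analysis was possible because the labels do not tie samples to animals. Genes near background are the least certain, and the scanner's own images and background were not used here.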
